A study of Mus musculus with 8 samples.

Results

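The genes described here encode the subunits of the constitutive 26S proteasome. They are the rows of the deposited table whose symbol is Psma, Psmb, Psmc or Psmd followed by a number, without the immunoproteasome subunits Psmb8, Psmb9 and Psmb10. The rule found 35 genes among the 16888 of the table. Of these, 34 reached the level needed for a test, at least 1 RPKM (reads scaled to gene length and to library size) in at least 4 libraries, and Psma8 did not.

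The libraries were made from total RNA of mouse pancreas. Per the labels, 4 came from animals with a myeloid-specific knockout of Anxa1 (CKO1 to CKO4) and 4 from animals with unrecombined Anxa1 flox/flox alleles (WT1 to WT4). All 8 were given cerulein repeatedly, a peptide that overstimulates the acinar cells and produces acute pancreatitis, so there was no untreated group. The Cre driver, strain, age and sex, and whether each library came from a separate animal, are all unstated in the labels. The p-values therefore measure the spread between libraries, which may be technical.

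The proteasome is the protease that degrades ubiquitin-tagged proteins in the cytosol and nucleus of all cells. Its 20S core is a barrel of alpha rings, which gate the entry, and beta rings, which hold the proteolytic sites. The 19S regulator caps the barrel. Its base contains ATPases that unfold the substrate and scaffold subunits that hold ubiquitin receptors, and its lid removes the ubiquitin chain. In acinar cells, which make large amounts of secretory protein, the proteasome also clears misfolded proteins withdrawn from the endoplasmic reticulum.

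Library depth was similar across the series, at 30469002 to 34359802 reads, and each tested subunit was covered by 125 to 8591 reads per library. These read numbers were recovered from the RPKM values. The deleted gene, Anxa1, was at 4.84, 4.76, 5.21 and 7.13 RPKM across CKO1 to CKO4, against 8.44, 14.7, 7.05 and 9.74 RPKM across WT1 to WT4. The lowest WT library lay below the highest CKO library (log2 change -0.73, SE 0.19, adjusted p = 0.0417; 0.0358 to 0.129 over 16 alternative settings, of which 5 kept the call). The pancreas identity of the tissue was clear from 44 acinar enzyme and secretory genes, whose summed level was 537576 to 614276 RPKM in CKO and 535776 to 578346 RPKM in WT. WT2 stood apart by its B and plasma cell genes (summed level 12.5 RPKM, where WT1, WT3 and WT4 had 0.142 to 4.40 RPKM and the CKO libraries 0.174 to 0.496 RPKM) and its adipocyte genes (136 RPKM, against 24.0 to 38.8 RPKM in the other 7 libraries).

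Few proteasome subunit transcripts passed the test, and the size of their differences depended on the scaling. The log2 change was below 0 for 34 of 34 tested subunits in the values as deposited, for 29 with each library centred on its median or scaled to totals free of acinar enzymes, and for 23 with the trend on gene length removed. Psmd3 counts among the 34 at -0.000258, which is level with 0, and 33 subunits had a lower CKO mean in the deposited values. Over all 8513 tested genes 70.4% were below 0 in the deposited values, 53.3% with median centring, 59.3% with acinar-free totals and 51.7% with the length trend removed. Of the 34 subunits 3 fell, namely the base chaperone Psmd5, the lid deubiquitinase Psmd14 and the alpha subunit Psma5, and 0 rose. That share was 8.82%, against 7.17% of all tested genes called in either direction, 5.74% called lower and 1.42% called higher. Only Psmd5 was called with median centring, totals without acinar enzymes, limma-voom, a block on the replicate number or the length trend removed, and 0 subunits were called without WT1, WT3 or WT4. With median centring the calls over all genes were 305 higher and 267 lower, in place of 121 and 489. The median log2 change of the subunits was -0.27, against -0.12 over all tested genes, and with the length trend removed -0.07 against -0.01. The median of the catalytic beta subunits was above 0 under each of the 3 other scalings.

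At an unadjusted p under 0.05, 19 of the 34 subunits were lower and 0 higher, where 22.7% of all tested genes were lower and 4.6% higher. The 4 CKO libraries all lay below the 4 WT libraries for 19 subunits, and 16.2% of all tested genes did so. With median centring 7 subunits were separated in that direction (8.55% of all tested genes), with totals without the acinar enzymes 6 (11%), and with the length trend removed 4 (8.16%). In that last setting the lid subunit Psmd3 and the catalytic subunit Psmb6 were separated in the other direction. The share of all tested genes separated that way in that setting is not given here. In the deposited values it was 2.46%, with 0 subunits. That value is no background for the setting with the length trend removed, in which 353 genes were called higher in place of 121. In whole tissue, fewer cells of a type and less RNA per cell cannot be told apart.

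**Figure D1:**
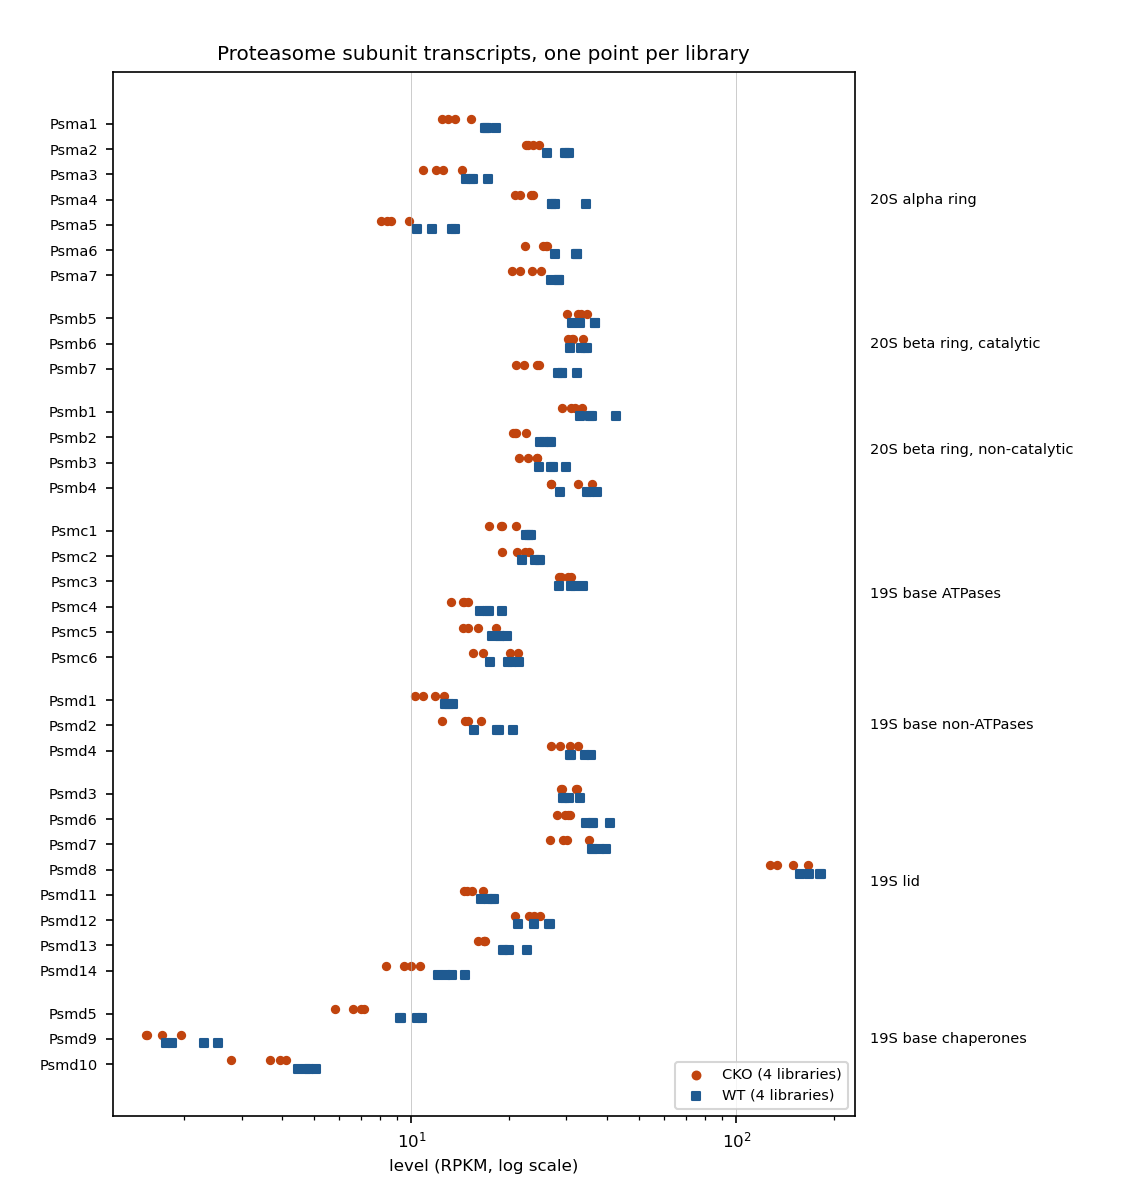
Level of each of the 34 tested proteasome subunits in RPKM (horizontal log axis), with 1 point per library: circles for the 4 CKO and squares for the 4 WT libraries, grouped by place in the complex. For 19 subunits the CKO points all lie to the left of the WT points in the values as deposited (7 with median centring, 6 with totals without the acinar enzymes and 4 with the length trend removed), and Psmd8 lies far to the right of the other subunits.

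The levels of the subunits, which are per length and so can be compared between genes, were close to each other. Of the 35 genes 30 had a mean over the 8 libraries of 10 to 40 RPKM, and the median of the tested subunits was 23.7 RPKM. The lid subunit Psmd8 was the exception above this range, with a mean of 158 RPKM, which was 6.65 times that median and 4.63 times the next highest subunit. Below the range were the 3 chaperones that carry Psmd names but are not part of the finished particle, Psmd5 (8.28 RPKM), Psmd10 (4.20 RPKM) and Psmd9 (1.90 RPKM). Psma8, the alpha subunit known from testis, was covered by 0 to 5 reads per library, and only CKO4 and WT4 reached 3 reads, taken here as the limit of detection. The median coefficient of variation between libraries was 7.92% in CKO and 7.02% in WT.

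Summed over all 35 genes, the subunits reached 764, 832, 863 and 768 RPKM across CKO1 to CKO4, against 942, 941, 927 and 991 RPKM across WT1 to WT4. The 4 CKO libraries were all lower than the 4 WT libraries, and CKO1 and CKO4 were the lowest. The sums averaged 807 ± 48.6 RPKM over the CKO and 950 ± 27.8 RPKM over the WT libraries (SD, n = 4), a ratio of 0.849, or 0.909 with median centring. CKO1 held the lowest level of 13 of the 34 tested subunits and CKO4 that of 18, while WT4 held the highest of 17 and WT2 of 10. CKO1 and CKO4 were also the libraries with the lowest median over all tested genes, at -0.23 and -0.21 on the log2 scale against the WT mean, where CKO2 stood at -0.06 and CKO3 at 0.02. For the subunits alone the medians were -0.31 in CKO1, -0.24 in CKO2, -0.15 in CKO3 and -0.32 in CKO4.

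**Figure D2:**
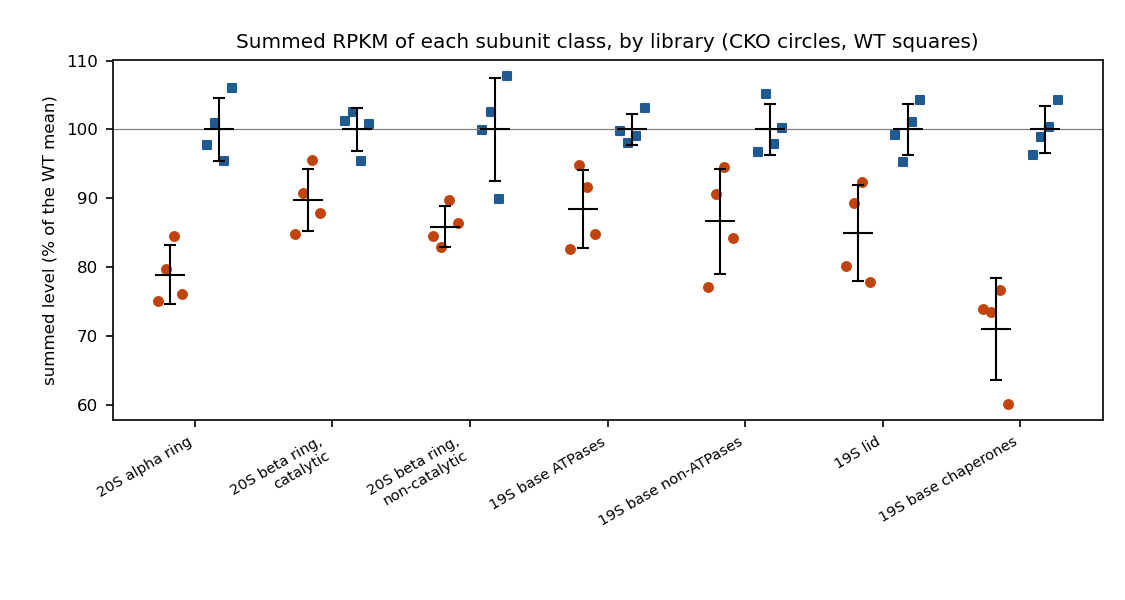
Summed RPKM of the subunits of each class as a percentage of the WT mean of that class (vertical axis, which does not start at 0), with 1 circle per CKO and 1 square per WT library and bars for mean ± SD (n = 4). In the values as deposited, the groups overlap only in the catalytic beta class, and the alpha ring and the base chaperones lie furthest from the WT mean. Class sums are shown for these values only, in which 70.4% of all tested genes had a log2 change below 0. The single subunits with separated groups were 19 in these values. They were 7 with median centring, 6 with totals without the acinar enzymes and 4 with the length trend removed.

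In the alpha ring 1 of 7 tested genes fell. The 7 tested genes had log2 changes of -0.44 to -0.30 with a median of -0.32, and the groups did not overlap for any of them (16.2% of all tested genes). With median centring or totals without acinar enzymes, Psma3, Psma4 and Psma7 were still separated, and with the length trend removed only Psma7. The 7 changes were below 0 under each of the 3 other scalings, with a median of -0.21 under median centring and -0.12 with the length trend removed. Psma5 was the member past the threshold. It was at 8.43, 8.08, 9.80 and 8.64 RPKM across CKO1 to CKO4, against 13.6, 13.3, 10.4 and 11.6 RPKM across WT1 to WT4. Each CKO value was below each WT value, with a narrow gap between CKO3 and WT3. Psma5 fell to 0.715 of the WT mean (8.74 ± 0.744 against 12.2 ± 1.49 RPKM; log2 change -0.44, SE 0.12, adjusted p = 0.0462). It kept that call in 3 of 16 alternatives and its adjusted p ran from 0.0385 to 0.166. Leaving out CKO1, CKO2, CKO4 or any of the 4 WT libraries ended it (adjusted p from 0.0516 without WT3 to 0.140 without WT1), and an exon overlap of 60 bases with 1700010K24Rik on the opposite strand was not resolved by the deposited values.

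The other alpha subunits did not pass. Psma6, the most abundant, was at 22.4, 25.9, 26.2 and 25.3 RPKM across CKO1 to CKO4, against 32.2, 32.0, 27.6 and 32.3 RPKM across WT1 to WT4 (log2 change -0.30, adjusted p = 0.0889). WT3 was the WT library closest to the CKO values. Psma4 was at 20.8, 23.3, 23.7 and 21.6 RPKM across CKO1 to CKO4, against 27.1, 27.1, 27.7 and 34.5 RPKM across WT1 to WT4, with WT4 well above the rest (log2 change -0.36, adjusted p = 0.0703). Psma1, Psma2, Psma3 and Psma7 had ratios of CKO to WT means of 0.786, 0.805, 0.793 and 0.809, with adjusted p of 0.074 to 0.0968.

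Of the 3 catalytic beta subunits, 0 passed. Psmb7, which carries the trypsin-like site, was at 22.2, 24.6, 24.3 and 20.97 RPKM across CKO1 to CKO4, against 28.3, 29.0, 29.1 and 32.3 RPKM across WT1 to WT4. Its groups were clearly separated, and the ratio of means was 0.776, but it narrowly missed the threshold (log2 change -0.35, 95% interval -0.58 to -0.13, adjusted p = 0.0567) and passed in 0 of 16 alternatives. It shares 405 exon bases with Nek6 on the opposite strand.

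Psmb5, the subunit of the chymotrypsin-like site, was at 30.1, 32.5, 34.8 and 33.2 RPKM across CKO1 to CKO4, against 36.8, 36.6, 33.1 and 31.2 RPKM across WT1 to WT4. The groups overlapped, since WT4 lay below 3 of the CKO libraries (log2 change -0.07, interval -0.30 to 0.15, adjusted p = 0.685). Psmb6, the subunit of the caspase-like site, overlapped as well, at 30.2, 31.2, 33.8 and 31.3 RPKM across CKO1 to CKO4, against 33.3, 34.1, 30.7 and 34.6 RPKM across WT1 to WT4 (log2 change -0.07, interval -0.28 to 0.15, adjusted p = 0.696). With median centring the log2 changes of Psmb5 and Psmb6 were 0.03 and 0.04, and with the length trend removed 0.16 and 0.15. No test compared Psmb7 with the other catalytic subunits.

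Of the structural beta subunits, 0 of 4 passed. Psmb2 had the smallest p, with 22.5, 21.03, 20.8 and 20.5 RPKM across CKO1 to CKO4, against 25.6, 26.8, 24.9 and 26.5 RPKM across WT1 to WT4. Its groups did not overlap (log2 change -0.28, adjusted p = 0.0882). Psmb1, the most abundant of them at 31.4 ± 1.82 against 36.7 ± 4.05 RPKM, had a log2 change of -0.22 (adjusted p = 0.217), which was 0.01 with the length trend removed. Psmb3 and Psmb4 had ratios of 0.855 and 0.899.

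In the 19S base, the 6 ATPases had log2 changes of -0.27 to -0.07 with a median of -0.19, and 0 passed. Psmc4 was at 14.5, 14.4, 15.0 and 13.2 RPKM across CKO1 to CKO4, against 18.9, 17.1, 16.3 and 17.3 RPKM across WT1 to WT4 (log2 change -0.27, adjusted p = 0.112). Its groups were separated in these values and under none of the 3 other scalings. Psmc1 was also separated, with 19.03 ± 1.46 against 23.0 ± 0.350 RPKM (log2 change -0.26, adjusted p = 0.112). It stayed separated with median centring and with totals without acinar enzymes, but not with the length trend removed. Psmc3, the most abundant ATPase, had overlapping groups at 29.6 ± 1.22 against 31.2 ± 2.22 RPKM (log2 change -0.07, interval -0.29 to 0.14, adjusted p = 0.662), and its change was 0.03 with median centring. With the length trend removed, 3 of the 6 ATPases lay below 0.

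The non-ATPase base subunits also gave 0 of 3 past the threshold. Psmd2, a large scaffold on which ubiquitin-binding proteins dock, was at 12.4, 14.9, 16.4 and 14.6 RPKM across CKO1 to CKO4, against 18.3, 20.6, 18.6 and 15.6 RPKM across WT1 to WT4. WT4 lay below CKO3, so the groups overlapped (log2 change -0.31, adjusted p = 0.125). With median centring the groups of Psmd2 were separated. Psmd4, a ubiquitin receptor, averaged 29.7 ± 2.46 against 32.9 ± 2.45 RPKM (log2 change -0.15, adjusted p = 0.393). The scaffold Psmd1 had a ratio of 0.876.

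The lid showed the widest spread among its own members. Psmd14, the metalloprotease that cuts the ubiquitin chain off the substrate, was at 9.94, 9.52, 10.6 and 8.36 RPKM across CKO1 to CKO4, against 12.8, 14.6, 12.1 and 13.3 RPKM across WT1 to WT4. Its groups did not overlap in these values, and CKO4 was the lowest library. They were also separated with the length trend removed, but not with median centring or totals without acinar enzymes. Psmd14 fell to 0.728 of the WT mean (9.60 ± 0.938 against 13.2 ± 1.07 RPKM; log2 change -0.42, SE 0.11, adjusted p = 0.0439). The call held in 4 of 16 alternatives, with adjusted p of 0.0386 to 0.121, and ended without CKO2, CKO4 or any of the 4 WT libraries (0.0688 without WT3 to 0.121 without WT2).

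Psmd3, a structural lid subunit, stood at the other end. It was at 29.1, 32.2, 32.1 and 28.8 RPKM across CKO1 to CKO4, against 29.2, 32.9, 30.6 and 29.6 RPKM across WT1 to WT4. The groups overlapped almost fully, with means of 30.6 ± 1.84 and 30.6 ± 1.67 RPKM and an interval of the log2 change from -0.22 to 0.22. Psmd8 was at 133, 150, 166 and 126 RPKM across CKO1 to CKO4, against 167, 157, 180 and 182 RPKM across WT1 to WT4 (log2 change -0.26, adjusted p = 0.156), so the most abundant subunit transcript had overlapping groups, with CKO3 above WT2. Psmd6 and Psmd7, a scaffold subunit and the structural partner of Psmd14, had separated groups and ratios of 0.804 and 0.809 (adjusted p = 0.0799 and 0.0999).

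The base chaperones held the subunit-family gene with the largest change. Psmd5 binds an ATPase of the unfinished base and leaves before the particle is complete. It was at 6.62, 7.15, 6.98 and 5.81 RPKM across CKO1 to CKO4, against 9.30, 9.25, 10.4 and 10.8 RPKM across WT1 to WT4. The highest CKO library was well below the lowest WT library. Psmd5 fell to 0.669 of the WT mean (6.64 ± 0.596 against 9.92 ± 0.770 RPKM; log2 change -0.52, SE 0.11, adjusted p = 0.0216).

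The call of Psmd5 was kept in 13 of 16 alternatives, among them all 3 other scalings, where its log2 change came nearest to 0 with the length trend removed (-0.36). It narrowly ended without WT1 (0.055), WT3 (0.0575) or WT4 (0.0567), in a range over all alternatives of 0.0202 to 0.0575. Psmd10, known as gankyrin, averaged 3.62 ± 0.587 against 4.78 ± 0.250 RPKM (log2 change -0.33, adjusted p = 0.107). Psmd9 averaged 1.68 ± 0.200 against 2.11 ± 0.380 RPKM (adjusted p = 0.278) and shares 1849 exon bases with Gm26745 on the opposite strand.

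**Figure D3:**
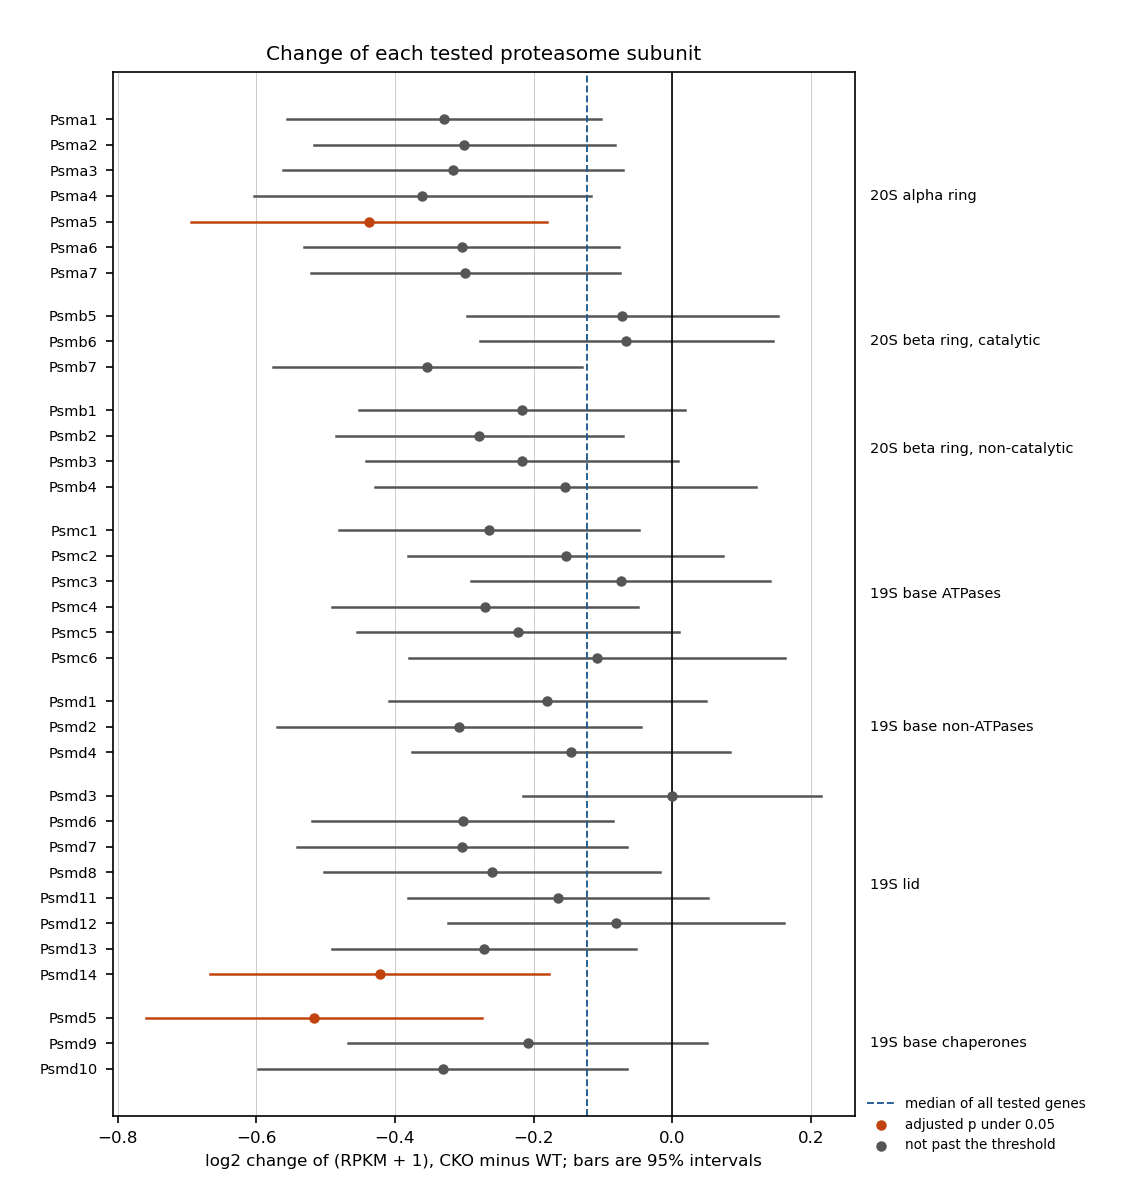
Log2 change of (RPKM + 1) from WT to CKO for the 34 tested subunits (horizontal axis, points) with 95% intervals (bars, 4 against 4 libraries), by class. All points lie at or left of 0 in the values as deposited (29 after median centring, 29 with totals without acinar enzymes, 23 with the length trend removed), Psmd5, Psmd14 and Psma5 in red pass the adjusted threshold, and the dashed line marks the median of all tested genes at -0.12.

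Subunit genes are short, and gene length moved with the change over the whole table. The length recovered from the values had a median of 1479 bases for the tested subunits and 3169 bases for all tested genes. Split into 3 length classes of equal size, all tested genes had median log2 changes of -0.20 in the shortest, -0.13 in the middle and -0.05 in the longest class. Of the 34 subunits 30 were in the shortest class, with a median of -0.27, and 4 in the middle class, with a median of -0.19. With the length trend removed, the subunit median was -0.07 against -0.01 for all tested genes, and of the 3 calls only Psmd5 remained.

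**Figure D4:**
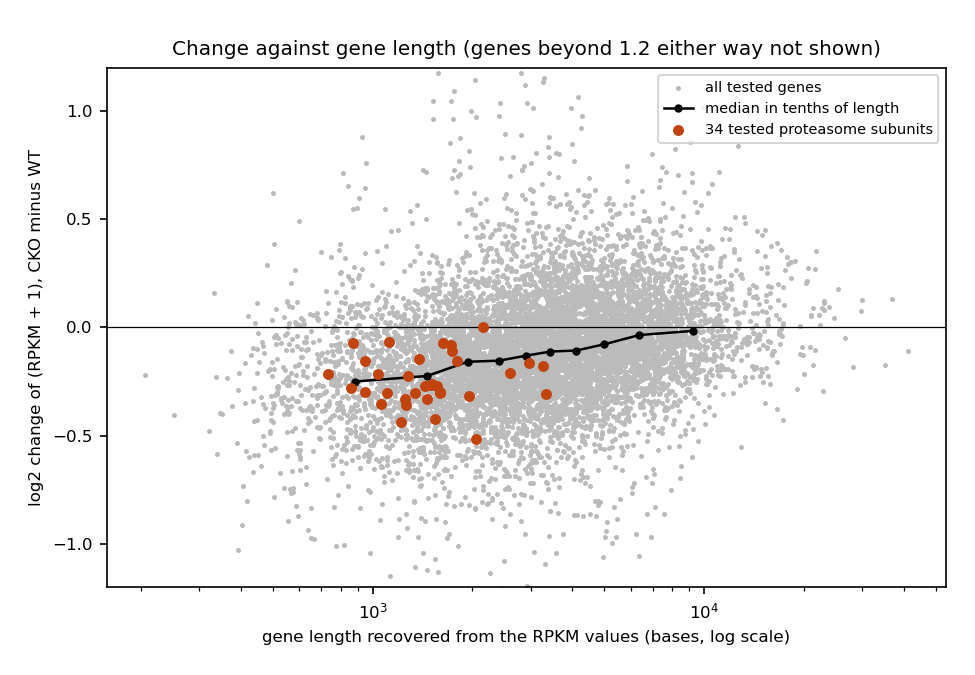
Log2 change of (RPKM + 1), CKO minus WT (vertical axis), against gene length recovered from the RPKM values (horizontal log axis) for all tested genes (grey), with their median in bins of equal size (black line) and the 34 proteasome subunits (red). Most subunits sit at the short end, where the line is lowest.

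How far the subunits varied together is given without the same value for other gene pairs, so it has no background. Over the 561 pairs of tested subunits, the deviations from the group means across the 8 libraries, which the genes of 1 library share, had a median Pearson r of 0.30 and ranged from -0.80 to 0.95. With median-centred libraries the median r was 0.519. The ratio of the summed 20S core to the summed 19S regulator without Psmd8 was 0.960, 0.884, 0.962 and 0.971 in CKO1 to CKO4 and 0.966, 0.992, 0.925 and 0.996 in WT1 to WT4, so the groups overlapped and CKO2 was lowest. Marker sums of other cells also differed in range between the groups. The summed level of 6 duct genes was 276 to 524 RPKM in CKO and 544 to 609 RPKM in WT, with 1 of 5 tested genes lower, and that of 12 monocyte and macrophage genes was 207 to 413 against 375 to 709 RPKM, with 2 of 12 lower. The sum of 8 neutrophil genes was 14.3 to 46.8 RPKM in CKO and 37.6 to 84.0 RPKM in WT, with 0 of 5 tested genes called. The sum of 6 islet genes went the other way, at 1290 to 2032 against 846 to 1631 RPKM, with 1 of 6 higher. Their part in the subunit levels was not tested. Without WT2 the subunit median was -0.25.

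The 35 genes lie on 16 chromosomes of mm10, and 9 of them share exon bases with another gene, 2 on the same strand (Psmb5 with Mir686 and Psmd1 with Gm21972). The genes that fell lie at chr2:34849734-34874968 on the minus strand (Psmd5), chr2:61711694-61800376 on the plus strand (Psmd14) and chr3:108256926-108279974 on the plus strand (Psma5). The regions just upstream of the 3 genes that fell are shown because Psmd5, Psmd14 and Psma5 are the subunits the test called. They are the 250 bases before the RefSeq gene start (GRCm38.p6), read 5′ to 3′ on the strand of the gene, and capitals mark any match on either strand to 3 motifs, TGACNNNGC (the core of the antioxidant response element, bound by Nfe2l1 and Nfe2l2), CCAAT and CCGGAAGT (an ETS motif). The Psmd5 region is at chr2:34870963-34871212 on the minus strand and lies within the GENCODE gene body, which starts further upstream. The Psmd14 region is at chr2:61711444-61711693 and the Psma5 region at chr3:108256676-108256925, both on the plus strand.
Psmd5: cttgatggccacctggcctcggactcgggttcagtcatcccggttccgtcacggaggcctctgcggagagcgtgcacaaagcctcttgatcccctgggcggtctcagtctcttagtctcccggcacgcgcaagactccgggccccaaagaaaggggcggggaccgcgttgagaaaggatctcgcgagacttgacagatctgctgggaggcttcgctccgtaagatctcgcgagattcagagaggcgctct
Psmd14: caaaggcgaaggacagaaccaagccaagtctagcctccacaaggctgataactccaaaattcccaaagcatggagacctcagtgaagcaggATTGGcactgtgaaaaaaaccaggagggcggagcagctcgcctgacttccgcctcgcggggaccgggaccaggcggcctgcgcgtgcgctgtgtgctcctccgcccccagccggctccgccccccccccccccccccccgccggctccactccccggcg
Psma5: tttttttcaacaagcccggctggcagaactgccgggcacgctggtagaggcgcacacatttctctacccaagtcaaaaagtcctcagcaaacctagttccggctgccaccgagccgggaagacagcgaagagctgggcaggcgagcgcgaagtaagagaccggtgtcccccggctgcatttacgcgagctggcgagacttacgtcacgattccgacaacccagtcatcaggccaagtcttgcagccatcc

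Only the Psmd14 region held a match, 1 to CCAAT on the opposite strand. A RefSeq promoter was matched for 28 of the 35 genes. CCAAT was found in 11 of the 28 (39.3%, against 39.2% of 6869 tested genes with a promoter) and CCGGAAGT in 4 (14.3% against 7.32%). TGACNNNGC was found in 5 (17.9% against 14.2%), and in 11.5% of all 27025 genes with a promoter. The 5 are Psmb5, Psmb6, Psmc6, Psmd12 and Psmd9, and their sites are printed with up to 10 flanking bases because the core is the motif bound by the factors described below. Capitals mark the TGACNNNGC match, which overlaps no other motif searched. The Psmd9 site lies within the GENCODE gene body, which starts further upstream, at chr5:123169413.
Psmb5, chr14:54618024-54618052, minus strand: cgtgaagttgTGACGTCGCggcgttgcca
Psmb6, chr11:70525338-70525356, plus strand: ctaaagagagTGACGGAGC
Psmc6, chr14:45329587-45329615, plus strand, match on the opposite strand: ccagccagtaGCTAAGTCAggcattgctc
Psmd12, chr11:107479278-107479299, plus strand, match on the opposite strand: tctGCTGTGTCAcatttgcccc
Psmd9, chr5:123228149-123228177, plus strand: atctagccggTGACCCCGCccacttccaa

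In the values as deposited, the log2 changes of these 5 were -0.21 to -0.07 with a median of -0.08, and 0 passed the threshold. The -0.21 is that of Psmd9, at a mean of 1.90 RPKM, where the pseudocount of 1 understates the change. Its ratio of CKO to WT means was 0.797. Psma3, which lacked the core, had a ratio of 0.793 with a log2 change of -0.32. The ratios of Psmb5, Psmb6, Psmc6 and Psmd12 were 0.949, 0.954, 0.929 and 0.941. The 23 tested subunits whose promoter lacked the core had changes of -0.52 to -0.15 with a median of -0.30. The other 6 tested subunits had no promoter in the table, and their changes were -0.35 to -0.00 with a median of -0.25, with Psmd3 and Psmc3 among them. This split was noticed after the values were known, is given for the deposited values only and was not tested. Over all tested genes with a promoter, the 974 with the core had a median of -0.12 and the 5895 without it also -0.12.

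Among 49 tested genes that work with the proteasome, 3 fell and 3 rose, where 5.74% of all tested genes were called lower and 1.42% higher. The 3 that fell belong to assembly, deubiquitination and ubiquitin supply, and the 3 that rose to the list of Nfe2l1 and its partners, which control proteasome gene transcription. The median log2 change of the 49 was -0.11.

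Of 5 core particle assembly chaperones, 1 fell. Pomp, which guides the last joining steps of the 20S core, was at 19.4, 21.2, 20.9 and 18.5 RPKM across CKO1 to CKO4, against 27.7, 26.9, 24.1 and 30.1 RPKM across WT1 to WT4. The groups did not overlap (ratio 0.734, log2 change -0.43, SE 0.11, adjusted p = 0.0348). Its call was kept in 5 of 16 alternatives (0.0363 to 0.144) and ended without CKO2, CKO4, WT1, WT2 or WT4. It also ended with no filter, median centring, totals without acinar enzymes, limma-voom or the replicate block. With the length trend removed it ended too, at a log2 change of -0.18 (adjusted p = 0.144). Psmg4 (ratio 0.720, adjusted p = 0.0736) and Psmg3 (ratio 0.712, adjusted p = 0.0857), which build the alpha ring, did not pass. Their log2 changes were -0.37 and -0.38 in the deposited values, and -0.10 and -0.14 with the length trend removed.

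Of 11 other regulator and associated proteins, 1 fell. Uchl5, a deubiquitinase docked on the regulator, was at 5.24, 6.48, 4.49 and 3.99 RPKM across CKO1 to CKO4, against 9.55, 9.01, 7.61 and 10.2 RPKM across WT1 to WT4. All CKO libraries were lower than all WT libraries, and Uchl5 fell to 0.556 of the WT mean (log2 change -0.75, SE 0.14, adjusted p = 0.0132). It passed in all 16 alternatives (0.0119 to 0.047). The small lid subunit Sem1 averaged 32.0 ± 4.08 against 45.5 ± 7.43 RPKM and narrowly missed the threshold (log2 change -0.49, adjusted p = 0.0504, 0.044 to 0.201 over the alternatives; it passed without CKO3 and with the replicate number as a block). The deubiquitinase Usp14 had a ratio of 0.763 (adjusted p = 0.0948).

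Of 2 ubiquitin precursor genes, 1 fell. Rps27a, a fusion of ubiquitin with a ribosomal protein, was at 139, 126, 128 and 115 RPKM across CKO1 to CKO4, against 241, 295, 282 and 212 RPKM across WT1 to WT4. The groups were far apart (ratio 0.493, log2 change -1.005, SE 0.12, adjusted p = 0.000606), and the call was kept in all 16 alternatives (0.000664 to 0.0074). Whether reads of related copies were counted with it was not tested, and it shares 160 exon bases with Clhc1 on the opposite strand. The ubiquitin gene Ubb averaged 181 ± 18.97 against 152 ± 14.9 RPKM (log2 change 0.25, adjusted p = 0.176, 0.0179 to 0.318 over the alternatives, past the threshold with the length trend removed).

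The list of Nfe2l1 and its partners gave 3 of 9 higher and 0 lower, where 1.42% of all tested genes were called higher (121 genes, 305 with median centring and 353 with the length trend removed). Nfe2l1 itself, which induces subunit genes when proteasome activity drops, was at 16.8, 24.1, 24.95 and 18.5 RPKM across CKO1 to CKO4, against 19.9, 19.8, 21.7 and 13.8 RPKM across WT1 to WT4. Its groups overlapped (log2 change 0.16, interval -0.20 to 0.51, adjusted p = 0.555). Nfe2l2, its relative and the main factor of the antioxidant response, was at 23.3, 37.5, 38.5 and 29.9 RPKM across CKO1 to CKO4, against 15.4, 10.3, 12.8 and 12.1 RPKM across WT1 to WT4.

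Every CKO library had more Nfe2l2 than every WT library, and it rose 2.55-fold (log2 change 1.27, SE 0.17, adjusted p = 0.0011; 0.000165 to 0.00955 in 16 alternatives, all past the threshold). The small Maf genes encode the partners with which both factors bind DNA. Maff rose 2.8-fold (6.09 ± 1.21 against 2.17 ± 0.417 RPKM; log2 change 1.15, adjusted p = 0.0011) and passed in all 16 alternatives. Mafk rose 1.73-fold (3.74 ± 0.430 against 2.17 ± 0.231 RPKM; log2 change 0.58, adjusted p = 0.0141), except without WT1 (0.055; range 0.0113 to 0.055). It shares 169 exon bases with Tmem184a on the opposite strand. Mafg, the other small Maf gene of the list, had overlapping groups and did not pass (4.42 ± 0.910 against 3.19 ± 0.332 RPKM; log2 change 0.36, adjusted p = 0.12). The transcript levels do not show the amount or the activity of these proteins.

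**Figure D5:**
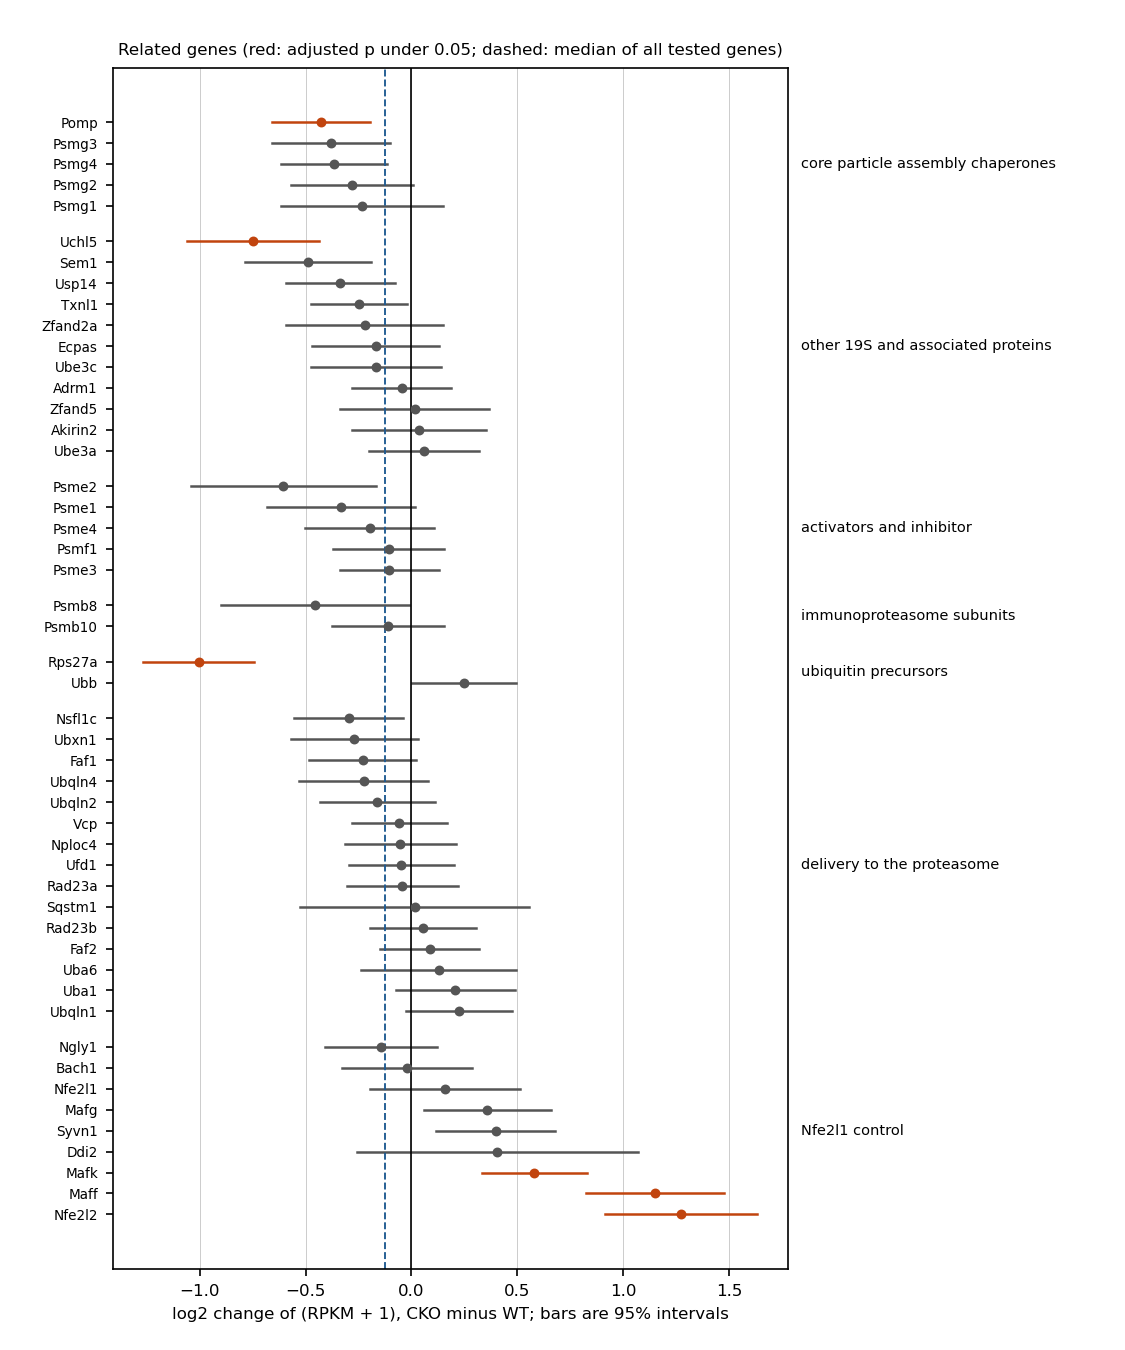
Log2 change of (RPKM + 1), CKO minus WT (horizontal axis, points), with 95% intervals (bars, 4 against 4 libraries) for 49 tested genes that work with the proteasome, by list. Pomp, Uchl5 and Rps27a to the left and Nfe2l2, Maff and Mafk to the right pass the adjusted threshold, and their directions were the same in all 16 alternatives.

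Of 15 genes that deliver substrates, 0 passed. Nsfl1c had the smallest p (ratio 0.814, adjusted p = 0.133), followed by Faf1 (0.850, adjusted p = 0.224) and Ubxn1 (0.834, adjusted p = 0.229), and the unfoldase Vcp had a ratio of 0.958. Of 5 activator and inhibitor genes 0 passed. Psme2, a subunit of the interferon-induced activator, was at 5.84, 6.88, 9.66 and 5.35 RPKM across CKO1 to CKO4, against 8.61, 15.5, 8.66 and 11.7 RPKM across WT1 to WT4, with WT2 highest (log2 change -0.60, adjusted p = 0.0815; 0.0372 to 0.195 over the alternatives, past the threshold without CKO3). Psme1, its partner, averaged 11.6 ± 1.71 against 15.0 ± 3.88 RPKM (adjusted p = 0.207), and Psme4 5.90 ± 0.959 against 6.92 ± 1.18 RPKM (adjusted p = 0.386).

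The immunoproteasome subunits, which replace the catalytic subunits in immune cells and under interferon, gave 0 of 2 tested past the threshold, and Psmb8 and Psmb9 were highest in WT2. Psmb8 was at 3.47, 3.47, 3.93 and 3.65 RPKM across CKO1 to CKO4, against 4.65, 9.60, 4.43 and 3.97 RPKM across WT1 to WT4 (log2 change -0.45, adjusted p = 0.174), and Psmb9 at 0.606 to 1.23 RPKM in CKO and at 0.736, 2.97, 0.519 and 0.769 RPKM in WT. WT2, which also had the highest sums of B and plasma cell, T cell, monocyte and macrophage, adipocyte and duct genes, was the high one for both, whereas Psmb5 at 36.6 RPKM and Psmb6 at 34.1 RPKM in WT2 lay within the range of the other WT libraries. Psmb10 averaged 16.8 ± 2.59 against 18.1 ± 1.04 RPKM (adjusted p = 0.583). The part of immune cells in these levels was not tested.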

How the data were processed

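The authors deposited 1 table of expression levels by gene symbol with 8 named value columns, whose header names no unit. The numbers were taken as RPKM deposited by the authors, because with 1 whole-number length per gene and 1 total per library 16055 of 16068 genes above 0 in 2 or more libraries (99.92%) came out as whole reads within 0.005 reads in every library. The genome build was mm10, per the submitters' processing notes. None of the sources used here gives the aligner, counter, strand setting, annotation or filters. 1 further column, unnamed and holding 8 numbers, was not used.

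Log2 of RPKM plus a pseudocount of 1 was fitted with limma 3.58.1 (R 4.3.3) on the group alone, with robust variances that follow the mean level. The 8513 genes that reached 1 RPKM in 4 or more libraries were tested, with Benjamini-Hochberg adjustment over all of them and a threshold of 0.05. This understates changes of genes near 1 RPKM. Intervals are at 95%. Each group has 4 libraries, and values are mean ± SD. Read floors cover counting error only. Other steps used pandas 2.3.3, NumPy 2.4.6 and Matplotlib 3.10.9 under Python 3.11.15. Positions are from GENCODE M21 and promoter sequences from RefSeq (GRCm38.p6).

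The genes, lists, tests and settings were chosen with earlier results of these data known. Genes named are the members past the threshold, in each class the member with the smallest p and the most abundant one, the catalytic subunits, members below the filter, the 3 genes with the smallest p of each related list, the immunoproteasome subunits and Nfe2l1. Others were named after their values were seen. The alternatives were a pseudocount of 0.1, no filter, variances without a trend, median centring, totals without acinar enzymes, limma-voom on reads recovered from RPKM, a block on the replicate number, each library left out, and, added after the data were seen, removal of a trend on gene length. Same-numbered libraries did not deviate together. Some genes of a related list are not reported here. Recovery and fit were tested on simulated data.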

Additional observations from a re-analysis of the deposited data

Results flagged for a closer look

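In groups of 4 libraries, 9 of 114 groups examined had 1 library whose gap to its nearest neighbour took up an unusually large part of the range, where chance gives about 1 in 20. Among the proteasome subunits there were 3 such cases in 70 groups. Psma4 was at 34.5 RPKM in WT4 and 27.1 to 27.7 RPKM in WT1 to WT3, and Psma1 at 18.2 RPKM in WT4 against 16.8 to 17 RPKM. Psma6 was at 27.6 RPKM in WT3 against 32 to 32.3 RPKM.

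In WT2, Psmb8 was at 9.6 RPKM against 3.97 to 4.65 RPKM, Psmb9 at 2.97 RPKM against 0.519 to 0.769 RPKM and Psme1 at 20.8 RPKM, where WT1, WT3 and WT4 had 12.6 to 13.9 RPKM. Psmb10 was at 16.5 RPKM in WT1 against 18.5 to 18.8 RPKM in the others. In CKO, Psmg3 was at 3.58 RPKM in CKO2 against 2.62 to 2.73 RPKM, and Ubxn1 at 16.6 RPKM in CKO4 against 25.1 to 25.6 RPKM.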

How the results depend on the processing

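The count of subunits that fell was 3 with a pseudocount of 0.1 and with variances without a trend. It was 1, Psmd5, without a low-value filter, with median centring, totals without the acinar enzymes, limma-voom, the length trend removed and the replicate number as a block. Leaving out 1 library gave 0 (without WT1, WT3 or WT4) to 3 subunits, with 1 without CKO2, CKO4 or WT2 and with Psma1 in place of Psma5 without CKO1. In all it gave 185 to 686 genes in place of 610, and 185 to 297 without CKO2, CKO4 or any WT library. With median centring the split of calls was 305 higher and 267 lower in place of 121 and 489, with the length trend removed 353 and 242, and with totals without the acinar enzymes 252 and 363. Median centring moved the median of all tested genes from -0.12 to -0.02. The ratio of summed subunit levels, 0.849, was 0.909 with median centring. With limma-voom 423 genes passed, and with no filter 464.

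Changes that turned direction were all of genes not called, and values are given for the genes chosen by the naming rule. With median centring they were Psmb5 (0.0316), Psmb6 (0.0377) and Psmc3 (0.0295), with totals without the acinar enzymes Psmb5 (0.0147), Psmb6 (0.0207) and Psmc3 (0.0124), besides Psmd12 and Psmd3 in both settings, and with the length trend removed Psmb1 (0.0053), Psmb10 (0.10), Psmb5 (0.16), Psmb6 (0.15), Psmc3 (0.11) and Psmd4 (0.0571), besides Psmb3, Psmb4, Psmc2, Psmc6, Psmd12 and Psmd3. With CKO1, CKO4, WT2 or WT3 left out alone, 33 of the 34 subunits lay below 0, in place of 34. The cause was not tested.

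Under the replicate block 548 genes passed in all. The numbers do not pair the libraries: correlations of same-numbered libraries' deviations were -0.123, -0.315, 0.142 and 0.0331, and 1 of 8 libraries correlated best with its own number.

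Only Psma8 among the subunits was limited by depth.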
